A study of Mus musculus with 15 samples.

Results

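The replication-dependent histone genes of the mouse lie in 4 clusters, and their symbols begin with Hist1h, Hist2h, Hist3h or Hist4h. All genes of the count table with such a symbol were taken, which gave 68 of 23329 genes. They comprise 6 H1, 18 H2A, 19 H2B, 12 H3 and 13 H4 genes, 54 of them in Hist1 on chromosome 13, 10 in Hist2 on chromosome 3, 3 in Hist3 on chromosome 11 and 1 in Hist4 on chromosome 6. The H2B genes include Hist3h2bb-ps, a pseudogene by its symbol.

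RNA sequencing of 15 tumors, each from a different mouse, is analysed here. A further EμMyc/Casp2-/- tumor, set aside in the study as an outlier, is not analysed here. The lymphomas came from cervical lymph nodes of C57BL/6 mice carrying EμMyc, a Myc transgene under the immunoglobulin heavy chain enhancer that is active in B cells. There were 4 EμMyc lymphomas with wild-type Casp2 (onset at 13 to 19 weeks) and 3 EμMyc/Casp2-/- lymphomas (8 to 12 weeks). The neuroblastomas came from the paraspinal thoracic region of Sv129/C57BL6 mice carrying Th-MycN, a MYCN transgene under the tyrosine hydroxylase promoter that is active in neural crest cells. There were 4 Th-MycN tumors with wild-type Casp2 (10 to 21 weeks) and 4 Th-MycN/Casp2-/- tumors (15 to 24 weeks). Every tumor thus carried an oncogene of the Myc family, and no normal tissue was included. The study asked how loss of caspase-2, a protease of the cell death machinery, alters the tumor transcriptome. Tumor type, tissue of origin and strain background cannot be told apart in this design, and the 2 lymphoma genotypes do not overlap in onset age. Tumors are numbered within each group, and the number carries no further meaning.

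Replication-dependent histone mRNAs supply the histones that package new DNA, and they are made almost only during S phase. Most of them do not end in a poly(A) tail. They end just after a short stem-loop that is bound by the stem-loop binding protein SLBP, while NPAT and CASP8AP2 (FLASH) act in their transcription and processing at the histone locus body. Some members of the clusters can also be cleaved at a downstream poly(A) signal, and such transcripts are known from differentiated cells and from tumors. The libraries here were made from RNA captured on oligo-dT beads, so what was counted is the share of histone RNA that this selection recovers and not the whole of it.

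The stem-loop was found after the stop codon in the GENCODE models of 45 members. The poly(A) signal AATAAA was found after the stop codon in 19 models, 14 of which held both. A single stem-loop of 16 bases, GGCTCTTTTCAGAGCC, occurred in 25 members (3 H1, 10 H2A, 7 H2B and 5 H3 genes), whereas the form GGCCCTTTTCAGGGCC occurred in 7 members, all H4 genes. The stem-loops are shown for the 4 members with over 1000 reads that have one, since these recovered members keep the element that normally ends a transcript without poly(A). Capitals mark the stem-loop, and the flanks of 5 bases are in lower case (mouse GRCm38, exonic sequence after the coding region):
Hist3h2ba, chr11:58949344-58949369 (+), 29 bases after the stop codon: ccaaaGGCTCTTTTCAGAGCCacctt
Hist3h2a, chr11:58955167-58955192 (+), 42 bases after the stop codon: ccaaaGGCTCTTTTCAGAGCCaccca
Hist1h1c, chr13:23739507-23739532 (+), 25 bases after the stop codon: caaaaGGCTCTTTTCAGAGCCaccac
Hist1h4i, chr13:22040961-22040986 (-), 31 bases after the stop codon: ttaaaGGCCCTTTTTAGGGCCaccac

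The last poly(A) signal of each model is shown for the 5 of these abundant members that have one, with AATAAA in capitals and up to 10 bases on each side. In 4 of the 5 the signal began 22 to 34 bases before the end of the model, and in Hist1h2bc it began 447 bases before it:
Hist3h2ba, chr11:58949497-58949522 (+), 187 bases after the stop codon: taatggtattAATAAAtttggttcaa
Hist3h2a, chr11:58956787-58956812 (+), 1667 bases after the stop codon: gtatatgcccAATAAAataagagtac
Hist1h1c, chr13:23740332-23740357 (+), 855 bases after the stop codon: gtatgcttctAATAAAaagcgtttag
Hist2h2be, chr3:96223707-96223732 (+), 2171 bases after the stop codon: tattattattAATAAAgttaccgatt
Hist1h2bc, chr13:23692452-23692477 (+), 296 bases after the stop codon: atgtatatatAATAAAtgtcatgtaa

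Few reads fell on the clusters, and most of these fell on 6 genes. Summed over all tumors and both strands, the 68 members held 41128 reads. Hist3h2a (an H2A gene) held 10162, Hist1h1c (the linker histone H1.2) 5902, Hist2h2be (an H2B gene) 5441, Hist3h2ba (an H2B gene) 4880, Hist1h4i (an H4 gene) 4046 and Hist1h2bc (an H2B gene) 3404. Together these 6 held 82.3% of the member reads, and they are called the abundant members from here on. The gap below them was wide, since Hist1h2ae, next in order, held 492 reads. Of the other 62 members, 26 held more than 100 and up to 1000 reads, 29 held 1 to 100 and 7 held none. The abundant members included no H3 gene, and the 12 H3 genes together held 3.33% of the member reads.

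Among the 6 abundant members, 5 had AATAAA after the stop codon in the model, as had 14 of the other 62. The same 5, Hist1h1c, Hist1h2bc, Hist2h2be, Hist3h2a and Hist3h2ba, are listed as having known polyadenylated transcripts. That list was fixed with earlier results of these data known. Of the 12 models with AATAAA within 50 bases of the end, 4 belonged to abundant members, and the median over the 12 was 217 reads. The 49 members with no AATAAA found after the stop codon had a median of 80 reads, and 1 of them, Hist1h4i, was abundant. The 49 include Hist3h2bb-ps, which has no coding region in its model and so was not searched. Among the 49 are 15 models that end within 10 bases of the stop codon. No signal could be found in these, whether or not the gene has one, and their exonic lengths stop there too. Per kb of exonic length the medians were 129.8 and 175.8 reads, so the order of these 2 sets depended on whether length was taken into account. Hist4h4, an H4 gene with known polyadenylated transcripts and 3 copies of AATAAA, held 116 reads in all and stood at 0 to 0.731 CPM (read counts scaled to library size, here with TMM factors) in the 15 tumors. Of the 3 members known mainly from testis, Hist1h1t held 16 reads, Hist1h2ba 7 and Hist1h2aa none.

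Near-identical copies limit what could be counted. A read that fits several loci was left out by the authors' counting, and the share of such reads was 19.4% to 24.2% in lymphomas and 15.0% to 17.7% in neuroblastomas. Under 20% of the windows of 50 bases (the read length) were found in no other transcript for 15 members. These 15 had a median of 31 reads, and 6 of them had none. By contrast, over 60% of windows were unique for 28 members, whose median was 147 reads. The 7 members without a read were Hist1h2bq, Hist1h2br, Hist1h2ao, Hist1h2ap, Hist1h4m, Hist2h2aa2 and Hist1h2aa. Only the last of these had mostly unique windows (97.7%), so for the other 6 the level is not known. A count of 0 allows up to 0.173 to 0.586 CPM, depending on the depth of the tumor (3 reads, counting error only).

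Summed over genes, the reads of the abundant members came from both strands about equally, and those of the others lay more often on the strand of the gene. The libraries did not mark strand, since 48.8% to 49.3% of all reads on genes lay in the column opposite to the gene in every tumor. Over the 6 abundant members, 50.1% of reads lay on the strand of the gene. Single abundant members departed from 50% in both directions, since the interval lay below it for Hist1h2bc (44.0%) and Hist3h2ba (47.4%) and above it for Hist1h4i (55.3%) and Hist1h1c (51.6%). Over the other 62 members this share was 61.7%, and it was above 50% in each of the 15 tumors (54.3% to 67.6%). Among members with 100 to 1000 reads, 40.7% (11 of 27) had over 60% of their reads on the strand of the gene, beside 5.59% of all genes with as many reads. In Hist1h2ai (an H2A gene) 185 of 228 reads lay on that strand, in Hist1h3c (an H3 gene) 222 of 297, and in Hist1h2ag (an H2A gene) 262 of 372. The exact binomial interval of the share lay above 50% for 26 of the 55 less abundant members with reads and below it for none, and it included 50% for the rest of them. The counts tested below come from the opposite column, as in the study, so they hold fewer of the reads of these genes than a column for the strand of the gene would. The position of the reads within each gene is not in the count tables, and its part in this pattern was not tested.

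**Figure D1:**
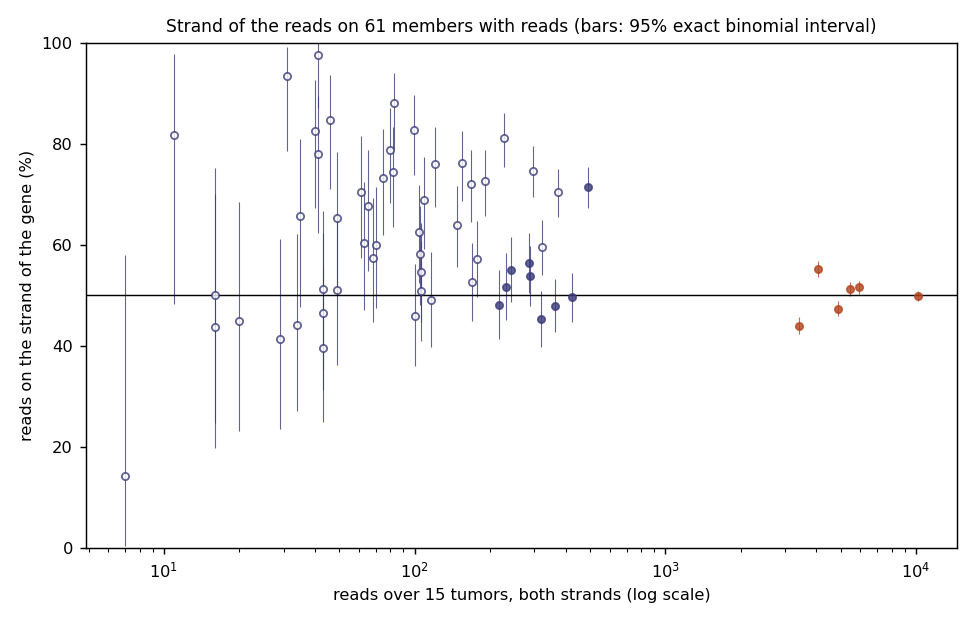
Share of reads on the strand of the gene (vertical axis, percent) against reads over 15 tumors (horizontal axis, log scale) for the 61 members with reads. Orange points are the 6 abundant members, blue points the other members, filled points passed the filter on low counts, and bars are 95% exact binomial intervals. The abundant members lie near the line at 50%, from 44.0% for Hist1h2bc to 55.3% for Hist1h4i, while many less abundant members lie above it.

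The summed level of the clusters was low in every tumor and its makeup differed between the tumor types. The sum over the 68 members was 105.4 ± 10.95 CPM (SD, n = 4) in EμMyc, 84.7 ± 26.6 (n = 3) in EμMyc/Casp2-/-, 92.9 ± 10.8 (n = 4) in Th-MycN and 131.9 ± 17.6 (n = 4) in Th-MycN/Casp2-/- tumors. The lowest Th-MycN/Casp2-/- tumor (116.3 CPM) stood above the highest Th-MycN tumor (105.8 CPM), while the lymphoma groups overlapped. Members were proposed with results of these data known, so no test was made of the sums. The Hist3 genes gave 41.2 ± 7.39 CPM in Th-MycN and 68.4 ± 18.6 in Th-MycN/Casp2-/- tumors, against 22.4 ± 8.66 in EμMyc and 17.2 ± 7.56 in EμMyc/Casp2-/- tumors. The sum over the H4 genes was instead higher in the lymphomas. It was 23.9 ± 3.34 CPM in EμMyc, 15.67 ± 1.503 in EμMyc/Casp2-/-, 6.36 ± 1.89 in Th-MycN and 5.54 ± 2.88 in Th-MycN/Casp2-/- tumors. Of these sums, Hist1h4i alone gave means of 21.7, 13.6, 4.505 and 3.32 CPM in the same order, so 1 gene carried the difference. H1 genes overlapped between all groups (11.04 to 29.4 CPM over the 15 tumors).

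**Figure D2:**
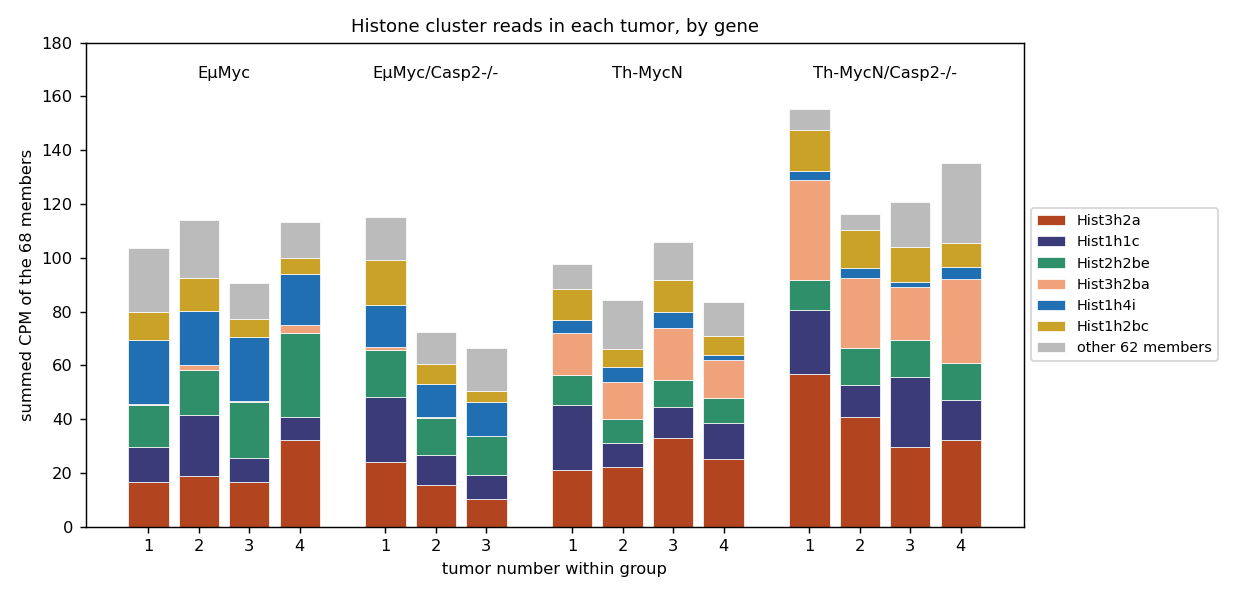
Summed CPM of the 68 members in each of the 15 tumors (vertical axis, CPM), stacked by gene for the 6 abundant members, with the other 62 members in grey. Hist3h2ba (light orange) is almost missing from the lymphomas, Hist1h4i (blue) is thin in the neuroblastomas, and the tallest bar is Th-MycN/Casp2-/- tumor 1 at 155.4 CPM.

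Only 15 members passed the filter on low counts (over 1 CPM in at least 3 of 15 tumors): Hist1h1a, Hist1h1b, Hist1h1c, Hist1h1d, Hist1h1e, Hist1h2ae, Hist1h2ak, Hist1h2bc, Hist1h4d, Hist1h4i, Hist2h2bb, Hist2h2be, Hist2h3c1, Hist3h2a and Hist3h2ba. Hist1h2ag and Hist1h2bj, with 2 tumors over 1 CPM each, fell just outside. The tests below cover these 15 only. Their p-values come from edgeR's quasi-likelihood test with Benjamini-Hochberg adjustment (FDR) over all 14880 genes tested, and a gene was called when FDR was under 0.05 and the change over 2-fold.

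Casp2 itself was examined first. Its level was 166.9, 125.3, 202.8 and 139.4 CPM in EμMyc tumors and 58.0, 51.9 and 76.1 CPM in EμMyc/Casp2-/- tumors. It was 125.5, 93.3, 76.0 and 106.3 CPM in Th-MycN and 80.2, 57.7, 39.6 and 54.5 CPM in Th-MycN/Casp2-/- tumors. The lymphoma groups did not overlap, and the neuroblastoma groups did, by 1 tumor. The log2 difference was -1.36 ± 0.26 (SE, FDR 0.0536) in lymphoma and -0.79 ± 0.23 (FDR 0.327) in neuroblastoma by edgeR's test. The counts are per gene, so reads from exons outside the deleted part cannot be told apart from the rest.

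The labelled tumor types were checked by markers. The 8 B cell markers summed to 1869 to 4448 CPM in the lymphomas and to at most 22.0 CPM in the neuroblastomas. The 8 neuroblast markers summed to 2749 to 3976 CPM in the neuroblastomas and to at most 24.6 CPM in the lymphomas. Of other cell types, the 8 T cell markers summed to 29.6 to 214.2 CPM in 6 lymphomas and to 1478 CPM in EμMyc/Casp2-/- tumor 1, where Lck stood at 411.8 CPM, none of the 8 was at 0 and the depth was the lowest (4940464 reads). Endothelial markers (4 genes, Pecam1 the most abundant) summed to 112.7 to 220.6 CPM in lymphomas and 15.7 to 65.6 in neuroblastomas. Macrophage markers (5 genes, Lyz2 the most abundant) summed to 252.8 to 1518 CPM in lymphomas and 318.4 to 803.2 in neuroblastomas. Fibroblast markers (4 genes, Col3a1 the most abundant) summed to 352.6 to 1388 and 191.3 to 561.3 CPM. The part of these cells in the histone levels was not tested. In such bulk samples, fewer cells of a type and less RNA per cell cannot be told apart.

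Which members differed between lymphoma and neuroblastoma was asked separately in tumors with and without Casp2. With wild-type Casp2, 3 members were higher in EμMyc (Hist1h4i, Hist1h1b and Hist2h2be) and 1 was lower (Hist3h2ba). Of these, Hist1h1b was over 1 CPM in no Th-MycN tumor, so it met the filter only through the group where it is high. Among all genes tested, 46.1% were called (18.3% higher and 27.8% lower), beside 4 of 15 members. The 9 tested members outside the abundant 6 averaged only 0.60 to 1.27 CPM over the 15 tumors, near the filter limit. Their SE in this comparison was 0.52 to 1.10, so no conclusion is drawn from the smaller share. Without Casp2, Hist1h4i was higher and Hist3h2ba and Hist3h2a were lower in the lymphomas, beside 46.4% of all genes called (19.7% higher and 26.6% lower). The median log2 difference of the 15 members was 0.66 in the comparison with Casp2 and -0.24 in that without (all genes: -0.04 and -0.05). The sign was the same in both comparisons for 11 of the 15, and for 89% of all genes. The comparisons used different tumors.

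**Figure D3:**
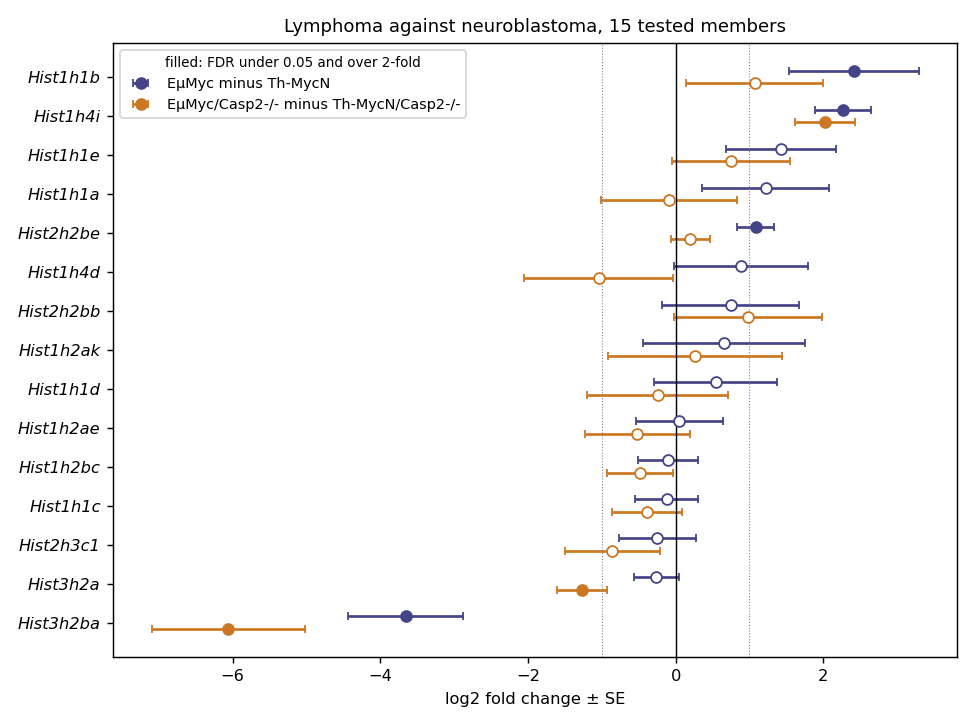
Log2 fold change (horizontal axis, points) with SE (bars) for the 15 tested members, lymphoma minus neuroblastoma, in tumors with wild-type Casp2 (purple) and in Casp2-/- tumors (orange). Filled points passed FDR under 0.05 and 2-fold by edgeR's quasi-likelihood test. Hist1h4i is filled to the right and Hist3h2ba to the left in both comparisons.

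Hist3h2ba had the largest difference of any tested member. It encodes an H2B protein and lies at chr11:58948920-58949533 (+, GRCm38), in a single exon. In EμMyc tumors it stood at 0.262, 1.71, 0.0787 and 2.97 CPM, and in EμMyc/Casp2-/- tumors at 1.17, 0.334 and 0 CPM, the last of which allows up to 0.303 CPM. In Th-MycN tumors it stood at 15.4, 13.6, 19.1 and 14.3 CPM, and in Th-MycN/Casp2-/- tumors at 37.0, 26.1, 19.7 and 31.0 CPM. Every neuroblastoma was above every lymphoma. The log2 difference was -3.65 ± 0.78 (FDR 0.00084, edgeR) with Casp2 and -6.06 ± 1.04 (FDR 0.000146) without.

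The size of the second value rests on 10 reads. In EμMyc/Casp2-/- tumor 1, 6 of the 39 Hist3h2ba reads lay in the column used, and the other reads lay on the strand of the gene. With reads of either strand the log2 difference without Casp2 was -4.42 (FDR 0.00372, edgeR), and with reads on the strand of the gene alone, an alternative chosen after seeing the data, it was -3.68 (FDR 0.00805). The difference with Casp2 was -3.68 and -3.74 in these 2 fits. The call held in all of them. Leaving out 1 tumor moved the difference with Casp2 to between -4.50 (without EμMyc tumor 4) and -3.24 (without EμMyc tumor 3), and it stayed called. Without EμMyc/Casp2-/- tumor 1, the tumor with the T cell markers, the difference without Casp2 was -7.18 (FDR 0.000203, edgeR), and without EμMyc/Casp2-/- tumor 3 it was -5.41 (FDR 0.000693).

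Its neighbour Hist3h2a, an H2A gene at chr11:58954685-58956830 (+), moved much less. Its level was 16.8, 18.9, 16.8 and 32.2 CPM in EμMyc and 24.2, 15.4 and 10.5 CPM in EμMyc/Casp2-/- tumors. In Th-MycN tumors it was 21.3, 22.3, 32.9 and 25.1 CPM, and in Th-MycN/Casp2-/- tumors 56.7, 40.7, 29.8 and 32.4 CPM. The groups with Casp2 overlapped, and those without did not. The log2 difference between tumor types was -0.26 ± 0.30 (FDR 0.471, edgeR) with Casp2 and -1.27 ± 0.34 (FDR 0.00511) without. Without EμMyc/Casp2-/- tumor 1 the latter was -1.56 (FDR 0.00205). Whether these 2 differences differ is the interaction given below, which did not pass. A GENCODE model of Trim17 starts at the same base as Hist3h2a, so reads shared by the pair could not be assigned. The Trim17 level was at most 2.31 CPM in every tumor.

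Genes on either side of the Hist3 cluster did not share 1 direction. Rnf187, 10004 bases below Hist3h2ba, was lower in lymphoma (log2 -1.12 ± 0.15 with Casp2 and -1.29 ± 0.16 without, FDR 1.06e-05 and 8.38e-06 by edgeR). Trim11, 21263 bases above Hist3h2a, was higher in lymphoma (1.86 ± 0.19 and 1.26 ± 0.20, FDR 6.5e-07 and 6.59e-05 by edgeR). Both encode RING-type ubiquitin ligases.

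Hist1h4i was the member with the clearest rise in lymphoma. It is an H4 gene at chr13:22040636-22041362 (-), and its model holds the stem-loop and no AATAAA after the stop codon. The level was 24.1, 20.2, 23.8 and 18.9 CPM in EμMyc, 15.6, 12.6 and 12.5 in EμMyc/Casp2-/-, 4.89, 5.52, 5.95 and 1.67 in Th-MycN and 3.46, 3.47, 1.74 and 4.63 CPM in Th-MycN/Casp2-/- tumors. All 7 lymphomas stood above all 8 neuroblastomas. The log2 difference was 2.27 ± 0.38 (FDR 0.000112, edgeR) with Casp2 and 2.02 ± 0.40 (FDR 0.000536) without. Of its nearest neighbours outside the clusters, Prss16 stood at 245.4 CPM in EμMyc/Casp2-/- tumor 1, the tumor with the T cell markers, and at most 3.06 CPM in the other 14 tumors. Hist1h4i stood at 15.6 CPM in that tumor, and without it the difference was 1.98 (FDR 0.00132, edgeR).

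Hist2h2be, an H2B gene at chr3:96221119-96223738 (+) with an exon of 2620 bases, was higher in EμMyc tumors. Its level was 15.5, 16.7, 20.9 and 31.3 CPM there and 11.1, 9.22, 10.1 and 9.39 CPM in Th-MycN tumors, with no overlap (log2 1.08 ± 0.25, FDR 0.00154, edgeR). Without EμMyc tumor 4 the difference was 0.83 (FDR 0.007), under the 2-fold limit. In tumors without Casp2 it was 17.2, 13.7 and 14.6 against 11.5, 13.6, 13.8 and 14.0 CPM, which overlapped (0.20 ± 0.27, FDR 0.547).

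Hist1h1b, which encodes the linker histone H1.5, was the weakest call. It stood at 3.85, 2.82, 1.02 and 0.743 CPM in EμMyc and at 0.55, 0.218, 0.346 and 0.432 CPM in Th-MycN tumors, from 97 and 25 reads. It was over 1 CPM in 5 lymphomas and 1 neuroblastoma, and the latter, Th-MycN/Casp2-/- tumor 4 (1.625 CPM), is not in this comparison. It thus passed the filter only through the lymphomas, where it is high, and no conclusion is drawn from its call. The log2 difference was 2.41 ± 0.88 (FDR 0.0271, edgeR), and in tumors without Casp2 it was 1.07 ± 0.93 (FDR 0.34). The call was lost with reads of either strand (1.86, FDR 0.0723), with reads on the strand of the gene (1.24, FDR 0.169), and without EμMyc tumor 1 (1.996, FDR 0.0757) or 2 (2.25, FDR 0.0532) or without Th-MycN tumor 2 (2.23, FDR 0.0706), 3 (2.36, FDR 0.0618) or 4 (2.47, FDR 0.0525).

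The 2 other abundant members did not pass in either comparison. Hist1h1c (H1.2) ranged from 8.60 to 22.8 CPM in EμMyc, 8.68 to 24.2 in EμMyc/Casp2-/-, 8.71 to 24.1 in Th-MycN and 12.2 to 25.8 CPM in Th-MycN/Casp2-/- tumors, so each group spanned about the range of the next. Its log2 differences were -0.12 ± 0.43 and -0.39 ± 0.47. Hist1h2bc (H2B) ranged from 5.95 to 12.2, 4.04 to 16.8, 6.90 to 12.0 and 8.77 to 15.3 CPM in the same groups, with log2 differences of -0.10 ± 0.41 and -0.48 ± 0.45. Without EμMyc/Casp2-/- tumor 1, the second of these was -1.13 (FDR 0.0359, edgeR).

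Of the less abundant named members, Hist1h1e (H1.4) stood at 1.28 to 2.71 CPM in EμMyc and 0.346 to 0.872 in Th-MycN tumors, without overlap, yet its difference of 1.42 ± 0.75 did not pass (FDR 0.112, edgeR). Fitted to these 2 groups alone, it did (FDR 0.0245), as it did without Th-MycN/Casp2-/- tumor 4 (1.475, FDR 0.0497, edgeR). In both fits it passed the filter only through lymphomas, where it is high. With reads of either strand the difference was 1.04 (FDR 0.197), and with reads on the strand of the gene 0.62 (FDR 0.459). In tumors without Casp2 its difference of 0.75 ± 0.80 (FDR 0.439) turned to -0.83 (FDR 0.384) with reads on the strand of the gene. Hist2h3c1 (an H3 gene) and Hist2h2bb (an H2B gene) had differences of -0.25 ± 0.52 and 0.74 ± 0.92 with Casp2 and -0.86 ± 0.64 and 0.98 ± 1.00 without. Hist1h1e and Hist2h2bb were called in the comparison without Casp2 when Th-MycN/Casp2-/- tumor 4 was left out (2.04, FDR 0.0312, and 3.15, FDR 0.0113). That tumor was the only neuroblastoma with over 1 CPM of either, so without it both passed the filter only through the lymphomas, where they are high. The 5 other tested members, Hist1h1a, Hist1h1d, Hist1h2ae, Hist1h2ak and Hist1h4d, had differences from -1.04 to 1.22 and none was called.

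**Figure D4:**
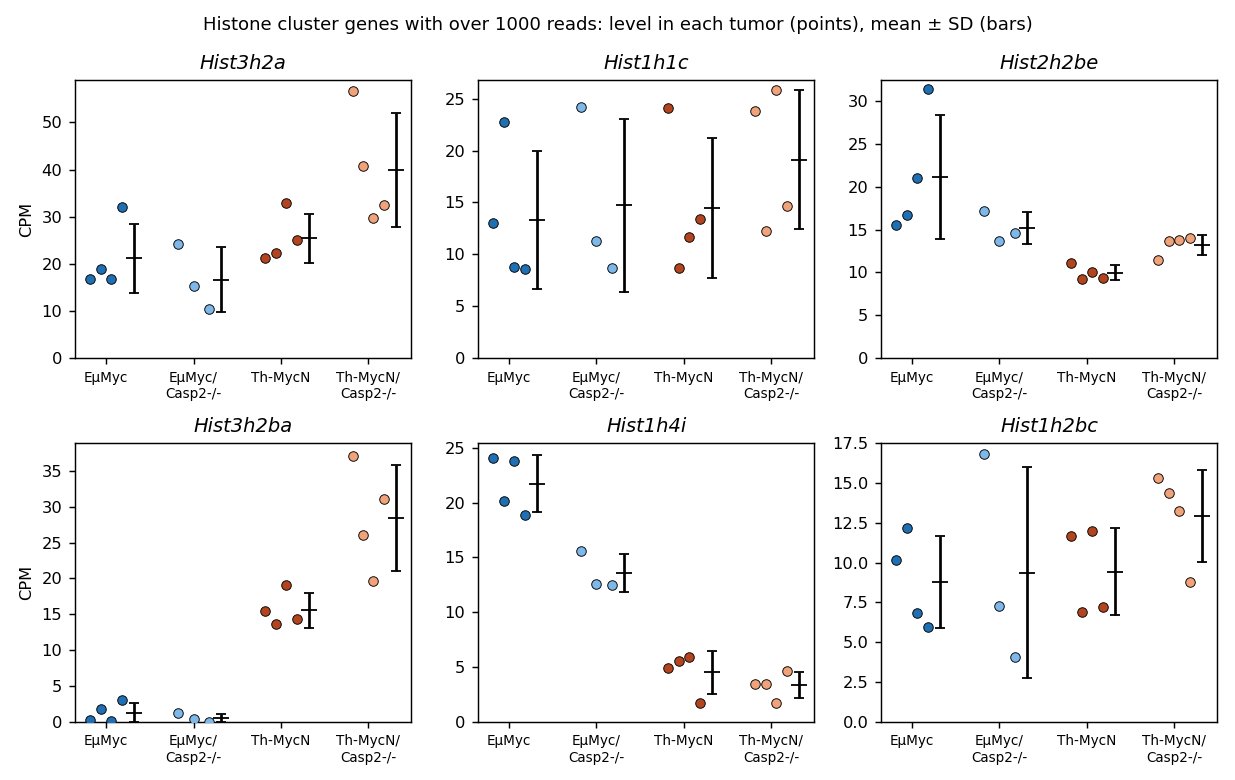
CPM of the 6 abundant members (vertical axes, linear from 0) in each tumor (points) with the mean and SD of the group (bars, cut off at 0 for Hist3h2ba). Neuroblastomas and lymphomas are fully apart for Hist3h2ba and Hist1h4i, and intermixed for Hist1h1c and Hist1h2bc.

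Levels of the 6 abundant members were compared with each other per length. Per kb of exonic length, Hist1h4i was highest of the 6 in lymphomas (25.1 CPM per kb), followed by Hist3h2a (8.97), Hist1h1c (8.92), Hist1h2bc (7.81), Hist2h2be (7.08) and Hist3h2ba (1.52). In neuroblastomas the order of the 6 was Hist3h2ba (35.85 CPM per kb), Hist3h2a (15.2), Hist1h1c (10.8), Hist1h2bc (9.67), Hist1h4i (5.38) and Hist2h2be (4.42). These lengths are those of GENCODE M21, and the release used for the counts is not given in the sources used here. With the RefSeq spans, which are shorter for both genes, Hist3h2a stood above Hist3h2ba in neuroblastomas (64.2 and 47.6 CPM per kb), so the order of this pair is not settled. In lymphomas the lead of Hist1h4i over Hist3h2a shrank with the RefSeq spans, to 45.3 against 37.9 CPM per kb.

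Promoters are shown for the abundant members called lower or higher without Casp2 (Hist3h2ba, Hist3h2a and Hist1h4i), from RefSeq (GRCm38.p6, 250 bases before to 50 after the start, 5′ to 3′ on the strand of the gene). Capitals mark matches, on either strand, to the letters CCAAT, the letters TATAAA, the letters ATTTGCAT or the letters CACGTG:
Hist3h2ba, chr11:58948661-58948960 (+): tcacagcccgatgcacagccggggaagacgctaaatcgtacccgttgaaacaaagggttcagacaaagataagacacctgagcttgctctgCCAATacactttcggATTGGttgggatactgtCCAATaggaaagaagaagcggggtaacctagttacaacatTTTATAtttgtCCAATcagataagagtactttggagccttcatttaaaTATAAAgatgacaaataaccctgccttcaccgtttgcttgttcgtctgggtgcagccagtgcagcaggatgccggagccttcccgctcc
Hist3h2a, chr11:58954435-58954734 (+): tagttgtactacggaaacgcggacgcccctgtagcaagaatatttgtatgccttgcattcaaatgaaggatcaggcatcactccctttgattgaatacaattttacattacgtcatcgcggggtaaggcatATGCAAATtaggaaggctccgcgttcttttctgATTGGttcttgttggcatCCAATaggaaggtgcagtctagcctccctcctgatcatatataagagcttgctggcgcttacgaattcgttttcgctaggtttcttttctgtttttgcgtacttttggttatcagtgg
Hist1h4i, chr13:22041313-22041612 (-): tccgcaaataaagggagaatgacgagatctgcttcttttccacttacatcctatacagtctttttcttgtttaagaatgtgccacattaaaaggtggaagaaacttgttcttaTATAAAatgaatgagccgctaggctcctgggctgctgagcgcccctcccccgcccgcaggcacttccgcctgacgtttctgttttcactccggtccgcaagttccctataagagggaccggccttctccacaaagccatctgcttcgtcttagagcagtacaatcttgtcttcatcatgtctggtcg

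CCAAT holds the letters known to be bound by the factor NF-Y, and the Hist3h2ba window held 4 matches to it, the Hist3h2a window 2 and the Hist1h4i window none. The letters of the TATA box were matched at 2 places in the Hist3h2ba window and at 1 place in the Hist1h4i window. ATTTGCAT is the octamer that OCT factors bind, and it was matched at 1 place in the Hist3h2a window. Over the 63 windows found for 62 members, CCAAT occurred in 85.7%, beside 37.4% of all 32851 windows. The TATA box letters occurred in 55.6% of member windows and 13.6% of all, and the octamer in 22.2% and 1.74%. The E-box letters that MYC and MAX bind (CACGTG) occurred in 0 member windows and in 7.15% of all windows. Member windows are not all separate sequences. Neighbours on opposite strands, such as Hist1h2bl and Hist1h2ai, share most of a window, and Hist1h2bq and Hist1h2br have the same letters. Some matches are therefore counted more than once in the member shares. A match is a description of letters only.

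Loss of Casp2 was compared within each tumor type, and no member was called in either. In neuroblastoma, 5 of 14880 genes were called by edgeR's quasi-likelihood test (0.0336%), and 1 member had an unadjusted p under 0.05, as had 1008 genes. The likelihood ratio test (0.813% of all genes called) and DESeq2 (0.784%) also called no member, each with 1 at an unadjusted p under 0.05. By the quasi-likelihood test the member was Hist3h2a, with a log2 difference of 0.65 ± 0.30 (FDR 0.736, edgeR). Hist3h2ba was higher in each Th-MycN/Casp2-/- tumor than in any Th-MycN tumor, with a difference of 0.87 ± 0.68 (FDR 0.951). Hist2h2be was likewise separate, at 0.41 ± 0.25 (FDR 0.881). The share of all genes with separate groups was not counted, so no conclusion is drawn from these separations. The median over the 15 members was 0.45, with 12 of 15 positive, beside a median of -0.0024 over all genes. In the same tumors the endothelial markers summed to 41.6 to 65.6 CPM with Casp2 and 15.7 to 28.03 CPM without, and the part of this in the histone levels was not tested.

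In lymphoma, 21 genes were called by edgeR's quasi-likelihood test (0.141%) and no member, 1 having an unadjusted p under 0.05, as had 1269 genes. The likelihood ratio test (1.44% of all genes called) and DESeq2 (1.37%) called no member here either, with 1 and 0 members at an unadjusted p under 0.05. Hist2h3c1, an H3 gene, stood at 1.05, 1.20, 0.709 and 1.27 CPM in EμMyc and 0.391, 0.501 and 0.202 CPM in EμMyc/Casp2-/- tumors, from 47 and 10 reads. Its groups did not overlap, and its difference of -1.504 ± 0.64 did not pass (FDR 0.525, edgeR). Hist1h4i was lower in each EμMyc/Casp2-/- tumor than in any EμMyc tumor (-0.68 ± 0.40, FDR 0.697). Here too the share of all genes with separate groups was not counted. The median over the 15 was -0.48 (all genes -0.03), with 5 positive. The T cell markers were higher in each EμMyc/Casp2-/- tumor (152.3 to 1478 CPM) than in any EμMyc tumor (29.6 to 110.4 CPM), and their part was not tested.

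The interaction asks whether the change with Casp2 loss differs between the tumor types. No member was called among 8 of 14880 genes (0.0538%, edgeR's quasi-likelihood test), and none by the likelihood ratio test (0.914% of all genes called) or DESeq2 (0.832%), each with 3 members at an unadjusted p under 0.05. By the quasi-likelihood test an unadjusted p under 0.05 was found for 2 members, as for 1127 genes. They were Hist2h2be (-0.88 ± 0.37, FDR 0.605, edgeR) and Hist3h2a (-1.001 ± 0.45, FDR 0.652). The median was -0.67 with 1 of 15 positive, but this contrast shares its tumors with the pair above, so it repeats their opposite signs.

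**Figure D5:**
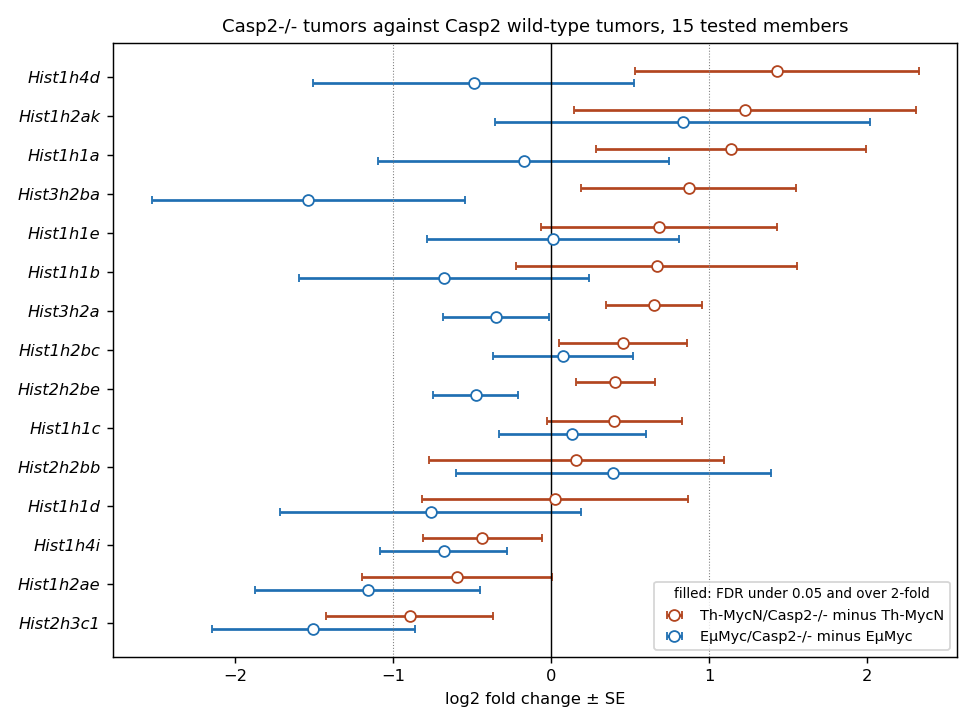
Log2 fold change (horizontal axis, points) with SE (bars) for the 15 tested members, Casp2-/- minus wild type, in neuroblastoma (orange) and lymphoma (blue). No point is filled, since none passed FDR under 0.05 and 2-fold by edgeR's quasi-likelihood test, and most bars cross 0 or come near it.

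The genes that handle histone mRNA and S phase were measured well, in contrast to most members. Slbp, which encodes the stem-loop binding protein, stood at 161.4, 167.4, 214.4 and 142.8 CPM in EμMyc and 80.5, 74.4, 60.1 and 77.0 CPM in Th-MycN tumors, without overlap (log2 1.23 ± 0.23, FDR 0.00033, edgeR). It was 85.2, 151.5 and 190.4 against 56.0, 50.6, 86.4 and 64.7 CPM in tumors without Casp2 (1.15 ± 0.25, FDR 0.00106), where the groups overlapped by the lymphoma with the lowest depth. Npat (0.63 ± 0.34 and 0.57 ± 0.37) and Casp8ap2 (0.40 ± 0.28 and 0.21 ± 0.30) did not pass in either comparison.

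Of the 19 genes of histone mRNA processing, 4 were higher in lymphoma with Casp2 (Slbp, Zfp473, Cpsf2 and Eri1) and 2 without (Slbp and Zfp473), and none was lower. Among all genes, 18.3% and 19.7% were called higher, so the count with Casp2 is near that background and the count without is below it. Zfp473 encodes a partner of the U7 snRNP that cuts histone pre-mRNA, Cpsf2 a subunit of the cleavage factor, and Eri1 an exonuclease that trims the stem-loop end. The 3 most abundant, Srrt, Upf1 and Ncbp1, had log2 differences of 0.83 to 0.99 with Casp2 and 0.85 to 0.90 without, under the 2-fold limit. The median of the 19 was 0.40 and 0.44, beside -0.04 and -0.05 over all genes. Of 27 S phase genes, 5 were higher in lymphoma in each comparison and none was lower, with medians of 0.34 and 0.43. These counts are near the 18.3% and 19.7% of all genes called higher. Cdk2, Mcm4 and Pola1 were among the 5 both times, joined by Pcna and Ccne2 with Casp2 and by Mcm3 and Gins2 without. The most abundant, Mcm6, Ccna2 and Rrm1, had differences of 0.69, 0.12 and 0.39 with Casp2 and were not called. Their summed level was 4760 to 6773 CPM in EμMyc, 5268 to 6146 in EμMyc/Casp2-/-, 3683 to 5599 in Th-MycN and 3175 to 4826 CPM in Th-MycN/Casp2-/- tumors. Of 15 histone chaperones measured, Asf1a and Asf1b were higher and Hjurp lower with Casp2, and Asf1b was higher without (medians 0.34 and 0.43), which is fewer than the 46.1% and 46.4% of all genes called. The most abundant, Ssrp1, Rbbp4 and Nasp, were not called. Of the 6 members listed as having known polyadenylated transcripts, 5 were tested. With Casp2, 1 was higher and 1 lower (median -0.12), and without Casp2 none was higher and 2 were lower (median -0.48). None of these genes was called for Casp2 loss in either tumor type or in the interaction.

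Replication-independent histone genes, whose mRNAs carry poly(A), were far more abundant than the clusters. Their 11 genes summed to 1494 to 2133 CPM in lymphomas and 2050 to 4129 CPM in neuroblastomas. H1f0 (the linker histone H1.0) stood at 6.30 to 63.65 CPM in lymphomas and 284.6 to 869.4 CPM in neuroblastomas (log2 -4.24 ± 0.63 with Casp2 and -4.85 ± 0.74 without, FDR 3.14e-05 and 4.73e-05, edgeR). H1fx and H2afy2 were also lower in lymphoma in both comparisons, H2afj was higher in both, and H3f3b, which encodes H3.3, was called lower in the comparison without Casp2 (-1.23 ± 0.39, FDR 0.0134) and not in that with Casp2 (-0.67 ± 0.35, FDR 0.112). The interaction was -0.56 ± 0.52 (FDR 0.869), so these values are not shown to differ. Called in all were 4 and 5 of the 11, near the 46.1% and 46.4% of all genes. These called genes are named because they are few, after their values were seen.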

How the data were processed

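Poly(A) RNA of the 15 tumors analysed here was sequenced by the authors as single-end reads of 50 bases, checked with FastQC and aligned to mm10/GRCm38 with STAR. The deposited values are unnormalized read counts per gene from STAR in 3 columns (either strand and each strand), with multi-mapping reads left out. The annotation release is not given in the sources used here. The column for the second strand was used, as in the study. Rows that count reads on no gene were left out. They held 33.0% to 43.8% of reads. Depth was 4940464 to 17638029 reads per tumor, and floors and intervals cover counting error only. No pair of tumors of a group agreed within sampling noise (chi-square per degree of freedom at least 16.2).

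The tests used edgeR 4.0.16 under R 4.3.3 (TMM, 4 group means, quasi-likelihood test, all 15 tumors), keeping genes over 1 CPM in at least 3 tumors, and the procedure was tested on simulated data. SE is the size of the log2 fold change divided by the root of F. Alternatives were the likelihood ratio test, DESeq2 1.42.0, RLE or no scaling, other filters, other columns, fits to 2 groups, and leaving out each tumor.

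Members named are Casp2 first, then the 8 most abundant in each tumor type, those called, and those with known polyadenylated transcripts. From the other lists, the 3 most abundant genes (by mean CPM over all tumors) and counts are given. Members and lists were chosen with earlier results of these data known. Positions, models and copies came from GENCODE M21 and promoters from RefSeq.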

Additional observations from a re-analysis of the deposited data

Results flagged for a closer look

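Among 69 groups of 4 tumors examined (named members and summed sets), 7 held a tumor far from the other 3 by Dixon's 95% criterion, which chance gives in about 1 in 20 groups. The summed sets share genes with each other and with the named members, and Hist4h4 was counted both as a member and as the Hist4 set. The 7 are therefore not separate findings, and their number cannot be set against that rate. In EμMyc, Hist3h2a stood at 32.2 CPM in tumor 4, and the next tumor stood at 18.9 CPM. Within Th-MycN/Casp2-/-, Hist2h2be was low in tumor 1 (11.5 CPM, next 13.6). The abundant members summed to 147.7 CPM in that tumor (next 110.4).

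Th-MycN/Casp2-/- tumor 4 was high in Hist2h2bb (2.03 CPM, next 0.289), in Hist4h4, the only gene of the Hist4 cluster (0.731 CPM, next 0.129), and in the summed H4 genes (9.83 CPM, next 4.63). The same tumor had the highest summed level of the 62 less abundant members among all 15 (29.6 CPM, beside 5.85 to 16.8 CPM in the 3 others of its group). Of the 55 less abundant members with reads in neuroblastomas, 26 were highest in this tumor when reads of either strand were counted. Its share of multi-mapping reads (16.5%) and its depth (12797572 reads) lay within the range of the other neuroblastomas. Its share of reads not on a gene (34.6%, others 33.0% to 34.3%) was the highest of the neuroblastomas and its TMM factor (0.962, others 0.983 to 1.01) the lowest, and their part was not tested.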

How the results depend on the processing

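For the log2 differences of the named members, 1161 values under other settings stayed on their side of the threshold, 8 lost the call, 5 gained it and none of those called reversed. Hist3h2ba and Hist1h4i kept their calls between tumor types in every setting and with every tumor left out, and Hist3h2a kept its call without Casp2. With reads of either strand Hist1h2ai was also called lower without Casp2 (-2.42, FDR 0.0221, edgeR). With those on the strand of the gene, chosen after seeing the data, Hist1h3g was called higher with Casp2 (1.82, FDR 0.0456, edgeR). In these fits Hist1h2ai passed the filter only through neuroblastomas and Hist1h3g only through lymphomas, where each is high. No conclusion is drawn from either call. With no filter, 2 members were called lower with Casp2 and 2 higher without. Leaving out 1 tumor gave 2 to 4 members called higher and 1 lower with Casp2, and 1 to 3 higher (3 without Th-MycN/Casp2-/- tumor 4) and 2 to 3 lower without. For Casp2 loss and the interaction no setting called a member. With 1 tumor left out, the summed level ranged from 102.5 to 111.0 CPM in EμMyc, 71.3 to 93.4 in EμMyc/Casp2-/-, 88.8 to 96.0 in Th-MycN and 124.6 to 137.9 in the Casp2-/- neuroblastomas. No paired analysis was possible because the labels give the tumors no shared numbers. Reads on the strand of the gene brought 21 members past the filter, either strand 18.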
